A study of Saccharomyces cerevisiae with 14 samples.

Results

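Ribonucleotide reductase and the genes that control it were followed through a RIP-seq data set from budding yeast, in which RNA bound to the mRNA decay factors Ccr4, Dhh1 and Puf5 was sequenced. The genes were chosen by name: *RNR1* (YER070W), *RNR2* (YJL026W), *RNR3* (YIL066C), *RNR4* (YGR180C), *RFX1* (YLR176C, also called *CRT1*), *SML1* (YML058W), *DUN1* (YDL101C), *DIF1* (YLR437C) and *HUG1* (YML058W-A). Of these 9 genes, 6 have a row among the 5945 RNAs of the count tables, of which 4792 are mRNAs. *RNR3*, *RFX1* and *HUG1* have no row there and were not analysed here.

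Ribonucleotide reductase makes the deoxyribonucleotides needed for DNA replication and repair. Its large subunit, Rnr1, holds the catalytic and regulatory sites, and its small subunit is a pair of Rnr2 and Rnr4. Yeast restrains the enzyme in several ways: Sml1 binds and inhibits Rnr1, Dif1 brings Rnr2 and Rnr4 into the nucleus and so away from Rnr1, and the repressor Rfx1 keeps *RNR2*, *RNR3*, *RNR4* and *HUG1* low. After DNA damage the checkpoint kinases Mec1 and Rad53 activate the kinase Dun1, which acts against Sml1, Dif1 and Rfx1. The mRNAs of these proteins are themselves open to decay factors. Ccr4 is the main cytoplasmic deadenylase, Dhh1 is a DEAD-box helicase that represses translation and promotes decapping, and Puf5 is a sequence-specific RNA-binding protein that recruits the Ccr4-Not complex.

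There were 5 groups of libraries: the Ccr4 IP, the Dhh1 IP, the Puf5 IP, the IP of untagged cells (UT IP) and the input of untagged cells (UT input). All cultures were *Saccharomyces cerevisiae* BY4741, grown in rich YPAD medium at 30° and cross-linked with formaldehyde, and no DNA damage or other stress is labelled for any library used here. In an IP of a factor, the extract came from cells with a myc tag on that factor, and the anti-myc antibody was also used on the untagged cells of the UT IP, while the UT input saw no antibody. Each IP had 3 libraries from separate biological replicates and the input had 2. The sources used here do not say how far a tag changes the function of a factor.

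Library totals ran from 20376517 to 23943342 reads, of which rRNA took from 95.1% to 97.4%. Reads of mRNAs made up 3.70% ± 0.333 of all reads in the Ccr4 IP, 3.43% ± 0.357 in Dhh1 IPs, 3.07% ± 0.306 in the Puf5 IP and 2.18% ± 0.00578 in the UT IP (SD, n = 3 each). Enrichment is given as a log2 ratio to the UT IP on the scale of all reads, so that most mRNAs lie above 0. The median over 4642 mRNAs was 1.24 in the Ccr4 IP, 0.94 in Dhh1 IPs and 0.61 in the Puf5 IP. Each member is therefore also set against these medians. As a further scaling, TMM factors, which centre most RNAs on no difference, brought the medians to 0.13, 0.04 and 0.03 in the Ccr4, Dhh1 and Puf5 IPs, and 5.63%, 1.14% and 4.45% of all RNAs, but none of the 6 mRNAs, were then called enriched. All 6 a-cell markers listed for BY4741, a *MAT*a strain, were present in every library and summed to 986 or more reads. None of 4 alpha-cell markers had a row. Rows came from published transcript ends, so a missing row does not show whether a gene was expressed. Of the 4 marker genes deleted in whole or in part in BY4741, *LEU2* and *MET15* had at most 3 reads in a library and *URA3* at most 18. The fourth, *HIS3*, had reads in every library, with 47 to 67 in the Ccr4 IP, 60 to 108 in Dhh1 IPs, 31 to 48 in the Puf5 IP, 14 to 39 in the UT IP and 27 to 28 in the UT input.

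The subunit mRNAs differed in how they were recovered. *RNR1* was enriched more than 2-fold in the Ccr4 IP and less in the other IPs, while *RNR2* and *RNR4* were among the least enriched of all mRNAs in Dhh1 IPs. Among the regulators, *SML1* was enriched in the IPs of all 3 factors. An RNA was called enriched with a false discovery rate (FDR, Benjamini-Hochberg) under 1% by edgeR's quasi-likelihood test and a log2 over 1. By this rule 4 of the 6 mRNAs were enriched in the Ccr4 IP, where 57.8% of all RNAs tested were. The count was 2 of 6 in Dhh1 IPs against 37.4% of all RNAs, and 1 of 6 in the Puf5 IP against 17.6%. These shares are not far from the background for a set of 6. All 6 passed the filter on low counts, and on the scale of all reads none fell below the UT IP by the same rule. Other scalings differed here in Dhh1 IPs, where *RNR4* was at -1.003 with TMM factors (edgeR, FDR = 0.000105) and -1.02 with DESeq2 size factors (FDR = 7.87e-09), both past the rule. *RNR2* was just short of it with TMM factors and past it with DESeq2 size factors (-1.02, FDR = 9.23e-09). The IPs share the same 3 UT IP libraries, so their values are not independent of each other. These were bulk cultures, in which fewer cells with an mRNA and less of it per cell cannot be told apart.

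**Figure D1:**
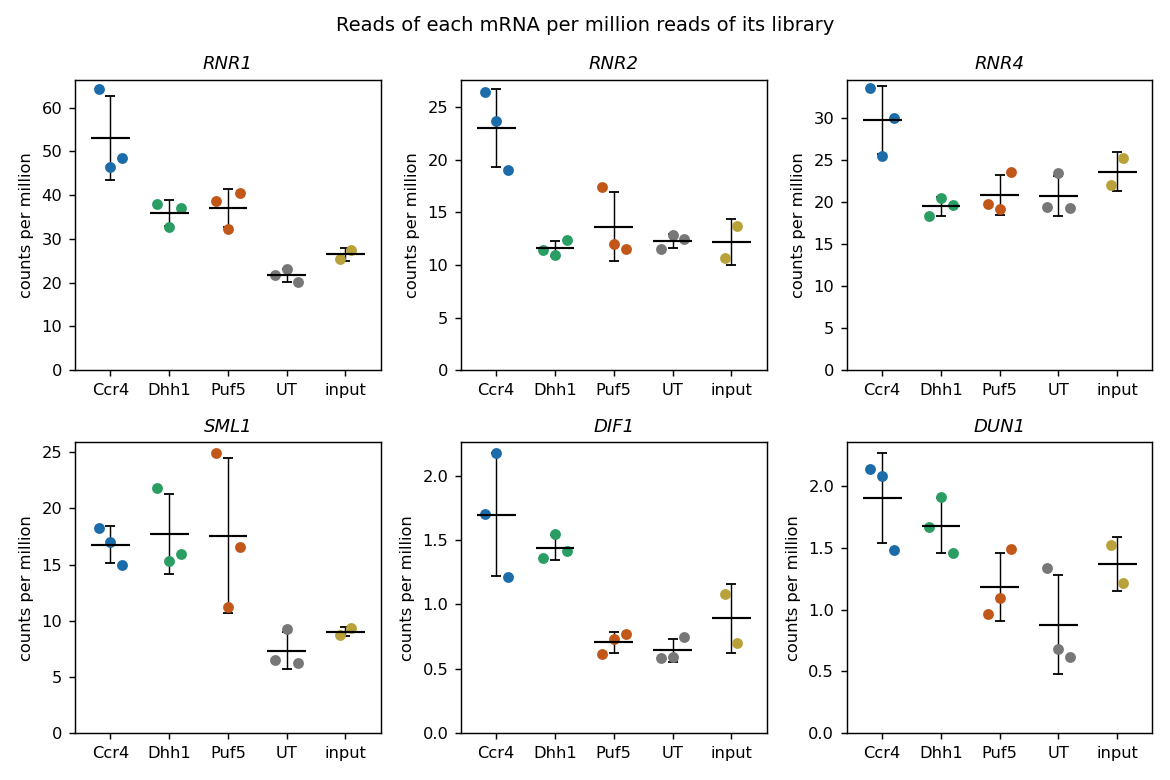
CPM (counts per 1000000 reads of the library; y axes, from 0) for the 6 mRNAs in the Ccr4, Dhh1 and Puf5 IPs, the UT IP and the UT input (x axes). Points are libraries, horizontal lines are means and bars are 1 SD; *RNR1* and *SML1* lie above the UT IP in every IP library of the 3 factors, while *RNR2* and *RNR4* do so only in the Ccr4 IP.

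*RNR1*, the main large subunit, had 1470, 1006 and 1080 reads in the Ccr4 IP libraries. It had 868, 719 and 760 in Dhh1 IPs, 884, 708 and 949 in the Puf5 IP, 520, 510 and 460 in the UT IP, and 518 and 590 in the UT input. Every library of the 3 factors lay above every UT IP and input library. As counts per 1000000 reads of the library (CPM) this came to 53.1 ± 9.67 in the Ccr4 IP, 35.9 ± 2.87 in Dhh1 IPs, 37.1 ± 4.31 in the Puf5 IP and 21.7 ± 1.49 in the UT IP (SD, n = 3 each). The log2 enrichment was 1.29 ± 0.16 (SE) in the Ccr4 IP, with an FDR of 1.25e-07 by edgeR's quasi-likelihood test. It was 0.72 ± 0.15 in Dhh1 IPs (FDR = 0.000336) and 0.77 ± 0.15 in the Puf5 IP (FDR = 0.000304), both past the FDR and short of 2-fold, and the Dhh1 value turned to -0.20 with TMM factors. Against the median mRNA, *RNR1* was close to it in the Ccr4 IP, with a difference of 0.05, and lay at -0.22 in Dhh1 IPs and 0.16 in the Puf5 IP. *RNR1* and *RNR3* encode closely related proteins, and how reads that match both were assigned is not given in the sources used here.

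*RNR2*, the small subunit that carries the iron and the tyrosyl radical, had 605, 512 and 423 reads in the Ccr4 IP, 260, 242 and 254 in Dhh1 IPs, and 397, 263 and 271 in the Puf5 IP. The UT IP had 277, 283 and 283 and the UT input 217 and 294. Only the Ccr4 IP lay above the UT IP in all its libraries. In reads the Dhh1 IP lay below the UT IP in all its libraries, but in CPM it overlapped the UT IP. The log2 enrichment was 0.90 ± 0.18 in the Ccr4 IP (FDR = 8.46e-05), -0.08 ± 0.18 in Dhh1 IPs (FDR = 0.666) and 0.15 ± 0.18 in the Puf5 IP (FDR = 0.516) by the same edgeR test. Without Ccr4 IP replicate 3 the first of these was 1.02 and passed the cutoff. With TMM factors it turned to -0.24, and the Puf5 value to -0.45.

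*RNR4*, the partner that is needed to assemble Rnr2 but has lost iron ligands itself, followed a similar course. It had 768, 551 and 667 reads in the Ccr4 IP, 417, 450 and 402 in Dhh1 IPs, and 451, 419 and 552 in the Puf5 IP, against 464, 515 and 439 in the UT IP and 447 and 540 in the UT input. The libraries of the Dhh1 IP and the Puf5 IP overlapped those of the UT IP, and those of the Ccr4 IP lay above them. The log2 enrichment was 0.52 ± 0.16 in the Ccr4 IP (FDR = 0.00462), -0.09 ± 0.16 in Dhh1 IPs (FDR = 0.597) and 0.01 ± 0.16 in the Puf5 IP (FDR = 0.977) by edgeR, and with TMM factors the Ccr4 value turned to -0.62 and the Puf5 value to -0.58. The 95% interval in Dhh1 IPs ran from -0.42 to 0.24, which is far below the median mRNA of 0.94.

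Only 0.948% of the mRNAs had a lower log2 than *RNR2* in Dhh1 IPs, and 0.883% a lower one than *RNR4*. In the Puf5 IP these shares were 16.9% and 9.24%, and in the Ccr4 IP 32.1% and 15.3%. For *RNR1*, 53.0% of the mRNAs were lower in the Ccr4 IP, 32.2% in Dhh1 IPs and 61.9% in the Puf5 IP. The plot of enrichment shows the log2 of both small subunit mRNAs below the median line of each IP. The interval of *RNR2* in the Ccr4 IP, from 0.54 to 1.28, crossed its median of 1.24, and the other intervals of *RNR2* and *RNR4* did not.

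**Figure D2:**
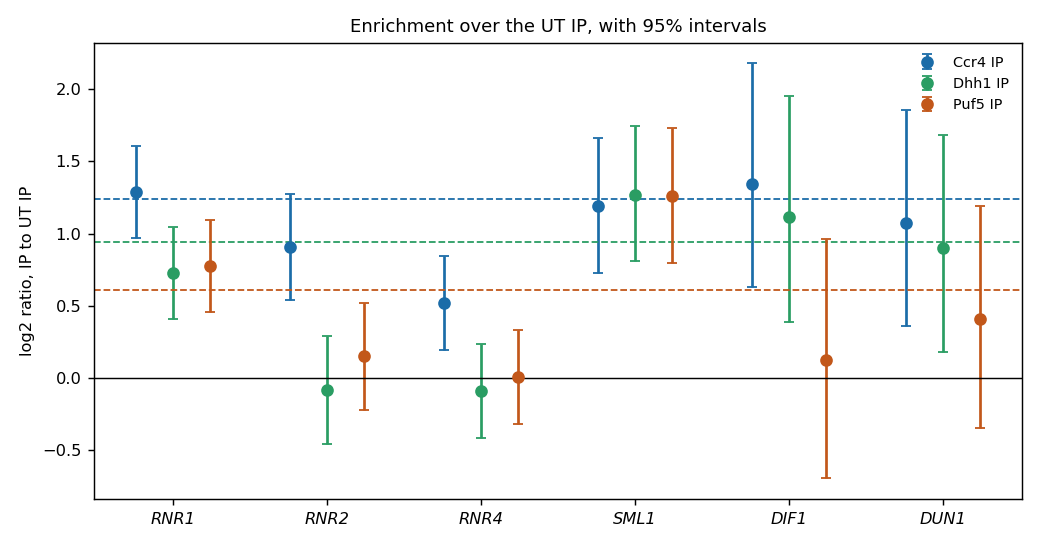
Log2 ratio of the Ccr4, Dhh1 and Puf5 IP to the UT IP (y axis) for the 6 mRNAs (x axis), with 95% intervals from edgeR's quasi-likelihood fit; dashed lines are the medians over mRNAs in each IP (1.24, 0.94 and 0.61). *RNR2* and *RNR4* lie near 0 in Dhh1 IPs, about 1.03 below its median, and *SML1* lies at or above the median in Dhh1 IPs and the Puf5 IP.

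*SML1*, which encodes the inhibitor of Rnr1, had 418, 368 and 333 reads in the Ccr4 IP, 496, 337 and 328 in Dhh1 IPs, and 568, 247 and 389 in the Puf5 IP. The UT IP had 155, 203 and 142 and the UT input 178 and 199. No library of a factor overlapped the UT IP or the input, although the Puf5 IP spread widely, at 17.6 ± 6.88 CPM (SD, n = 3). The log2 enrichment was 1.19 ± 0.23 in the Ccr4 IP (FDR = 5.12e-05), 1.27 ± 0.23 in Dhh1 IPs (FDR = 6.73e-05) and 1.26 ± 0.23 in the Puf5 IP (FDR = 9.21e-05) by edgeR, and each passed the cutoff. Without Puf5 IP replicate 1, which had the most reads, the value in the Puf5 IP was 0.92 and no longer over 2-fold. *SML1* lay -0.05 from the median mRNA in the Ccr4 IP, 0.33 above it in Dhh1 IPs and 0.65 above it in the Puf5 IP, where 85.2% of the mRNAs were lower. In the RefSeq annotation of assembly GCF_000146045.2, *HUG1* is the neighbour of *SML1*, and reads of *HUG1* were not counted in a row of their own here.

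*DIF1* and *DUN1* had few reads. *DIF1*, whose product takes the small subunit into the nucleus, had 39, 47 and 27 reads in the Ccr4 IP, 31, 34 and 29 in Dhh1 IPs, and 14, 16 and 18 in the Puf5 IP, against 14, 13 and 17 in the UT IP and 22 and 15 in the UT input. The Ccr4 and Dhh1 libraries were all above the UT IP and input, and the Puf5 libraries overlapped the UT IP. *DIF1* was enriched in the Ccr4 IP, with a log2 of 1.34 ± 0.38 (FDR = 0.00167), and in Dhh1 IPs, with 1.11 ± 0.38 (FDR = 0.00934). In the Puf5 IP the log2 was 0.12 ± 0.40 (FDR = 0.809), which turned to -0.43 with TMM factors. The call in Dhh1 IPs is at the edge: it was lost without Dhh1 IP replicate 1, 2 or 3, without UT IP replicate 1, 2 or 3, and without 4 of the 6 libraries of the other factors, with FDRs up to 0.0279. The call in the Ccr4 IP was lost without Ccr4 IP replicate 2 (log2 1.13, FDR = 0.0162).

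*DUN1*, the checkpoint kinase, had 49, 45 and 33 reads in the Ccr4 IP, 38, 42 and 30 in Dhh1 IPs, and 22, 24 and 35 in the Puf5 IP. The UT IP had 32, 15 and 14 and the UT input 31 and 26. UT IP replicate 1 had more than the other UT IP libraries and overlapped the Dhh1 IP and the Puf5 IP in reads, and in CPM the Puf5 IP alone. The log2 of *DUN1* was 1.07 ± 0.36 in the Ccr4 IP (FDR = 0.00756), which passed, 0.90 ± 0.37 in Dhh1 IPs (FDR = 0.0262) and 0.41 ± 0.37 in the Puf5 IP (FDR = 0.367) by edgeR. Without UT IP replicate 1 the log2 in Dhh1 IPs was 1.31 and passed (FDR = 0.00597). The call in the Ccr4 IP was lost without Ccr4 IP replicate 1 or 2 or UT IP replicate 2 or 3, with log2 values from 0.88 to 1.00, and with TMM factors it was -0.04 there and -0.16 in the Puf5 IP.

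Because the total is mostly rRNA, the values were also taken as reads per 100000 mRNA reads of a library. On this scale *RNR4* averaged 80.2 ± 8.52 in the Ccr4 IP, 57.3 ± 8.76 in Dhh1 IPs, 68.0 ± 7.73 in the Puf5 IP and 95.1 ± 11.1 in the UT IP (SD, n = 3 each), and 88.7 in the UT input (n = 2). *RNR2* averaged 62.1 ± 5.74 in the Ccr4 IP, 34.0 ± 3.85 in Dhh1 IPs, 44.3 ± 7.89 in the Puf5 IP and 56.5 ± 3.18 in the UT IP, and 45.7 in the input. Both small subunit mRNAs were thus a smaller part of the mRNA reads in each Dhh1 IP and Puf5 IP library than in each UT IP library. For *RNR4* this held in each Ccr4 IP library too. With library sizes set to the mRNA totals, the log2 in Dhh1 IPs was -0.73 for *RNR2* (FDR = 0.0021) and -0.73 for *RNR4* (FDR = 0.0017) in edgeR's quasi-likelihood fit, so that both fell relative to mRNAs as a whole. On this scale the log2 of *RNR4* was below 0 in the other IPs too, at -0.25 in the Ccr4 IP (FDR = 0.155) and -0.48 in the Puf5 IP (FDR = 0.019). That of *RNR2* was 0.14 in the Ccr4 IP (FDR = 0.447) and -0.35 in the Puf5 IP (FDR = 0.101).

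*RNR1* averaged 143 ± 14.2 per 100000 mRNA reads in the Ccr4 IP, 105 ± 6.18 in Dhh1 IPs, 121 ± 6.28 in the Puf5 IP and 99.8 ± 7.07 in the UT IP (SD, n = 3 each). With mRNA totals its log2 in the Ccr4 IP was 0.52 (edgeR's quasi-likelihood test, FDR = 0.00112). By the same test it was 0.07 in Dhh1 IPs (FDR = 0.698) and 0.28 in the Puf5 IP (FDR = 0.094), both short of the FDR. Dhh1 IP replicates 1 and 2 (99.5 and 103.9) lay below UT IP replicate 2 (106.9). *SML1* averaged 45.3 ± 1.86 in the Ccr4 IP, 51.2 ± 4.85 in Dhh1 IPs, 56.3 ± 17.2 in the Puf5 IP and 33.6 ± 7.75 in the UT IP, and its log2 in the Puf5 IP was 0.75 (FDR = 0.00676). The log2 of *SML1* was 0.43 in the Ccr4 IP (FDR = 0.0646) and 0.61 in Dhh1 IPs (FDR = 0.0279), both short of the FDR. On this scale *SML1* in Puf5 IP replicate 2 (41.3) lay below UT IP replicate 2 (42.6). Neither *RNR1* nor *SML1* reached 2-fold in any IP. With mRNA totals none of the 6 was called enriched in any IP. Of all 4914 RNAs tested, 768 were called in the Ccr4 IP, 157 in Dhh1 IPs and 278 in the Puf5 IP. With so few called, none of 6 is not far from the background. The calls above hold for the share of all reads and not for the share of mRNA reads.

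**Figure D3:**
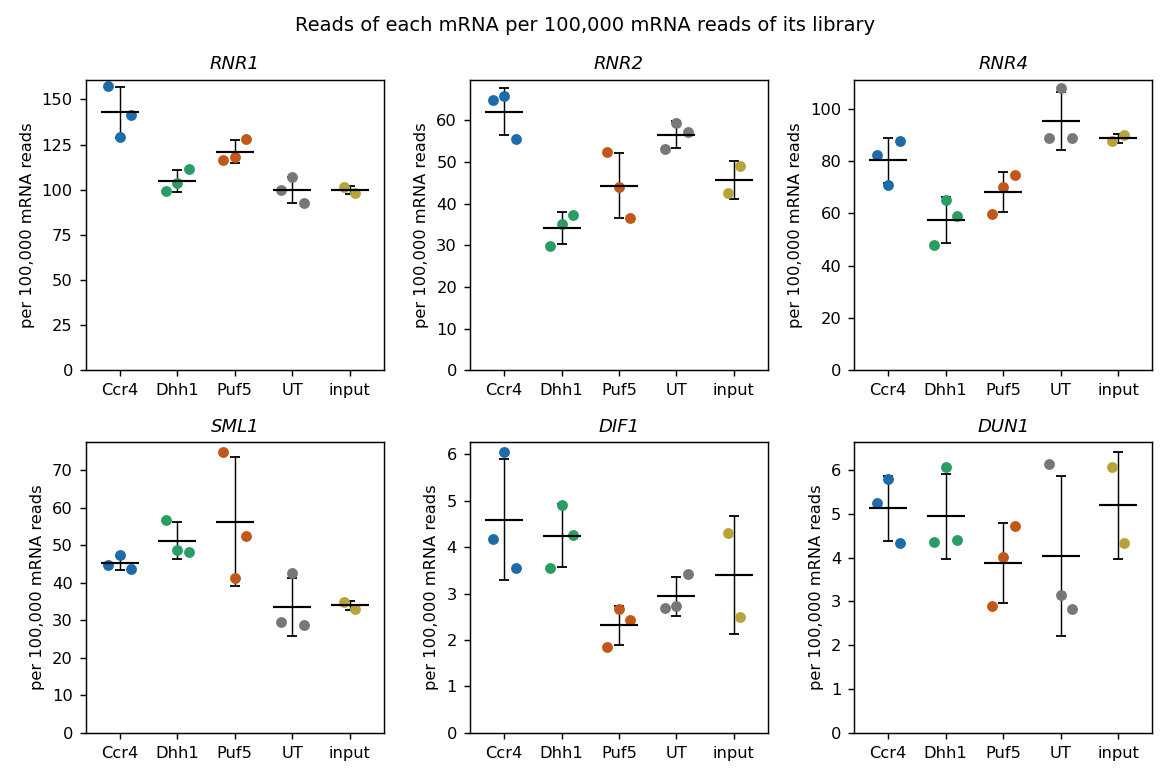
Reads per 100000 mRNA reads of the library (y axes, from 0) for the 6 mRNAs in the Ccr4, Dhh1 and Puf5 IPs, the UT IP and the UT input (x axes). Points are libraries, lines are means and bars are 1 SD. *RNR2* and *RNR4* are lower than in the UT IP in every library of the Dhh1 IP and the Puf5 IP. *RNR4* is also lower in every library of the Ccr4 IP. *RNR1* lies above the UT IP in every library of the Ccr4 IP and the Puf5 IP.

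The ratio of 2 mRNAs within a library does not depend on its total, and the length of each mRNA cancels when libraries are compared. This ratio was looked at after the counts were seen. *RNR1* had 1.91, 1.83 and 1.62 reads per read of *RNR4* in the Ccr4 IP, 2.08, 1.60 and 1.89 in Dhh1 IPs, and 1.96, 1.69 and 1.72 in the Puf5 IP. The ratio was 1.12, 0.990 and 1.05 in the UT IP and 1.16 and 1.09 in the UT input. All 9 libraries of the factors were above all 5 others. The ratio of *RNR1* to *RNR2* separated the factors from the UT IP but not from the input: it was 1.96 to 2.55 in the Ccr4 IP, 2.97 to 3.34 in Dhh1 IPs and 2.23 to 3.50 in the Puf5 IP, against 1.63 to 1.88 in the UT IP and 2.39 and 2.01 in the input. For both ratios the exact permutation test gave a two-sided p of 0.1 for each factor against the UT IP, the smallest that 3 libraries against 3 allow. *RNR2* and *RNR4* kept nearly the same ratio in Dhh1 IPs (0.598 ± 0.0521) and the UT IP (0.597 ± 0.0476, SD, n = 3 each). In the Ccr4 IP this ratio was 0.784 ± 0.148, and it overlapped the UT IP, with p = 0.2 by the same exact test.

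The factors were next compared directly, without the UT IP, at an FDR under 1% in either direction. Between the Ccr4 IP and the Dhh1 IP, 1 of the 6 mRNAs differed, against 5.89% of all RNAs tested. This was *RNR2*, with a log2 of 0.99 ± 0.18 and a 95% interval from 0.62 to 1.36 (edgeR's quasi-likelihood test, FDR = 0.000517), at 26.4, 23.7 and 19.0 CPM in the Ccr4 IP and 11.4, 11.0 and 12.4 CPM in Dhh1 IPs. The 2 groups did not overlap, and the call passed in all 19 alternative settings tried, left-out libraries included, with log2 values from 0.73 to 1.11. *RNR4* (0.61 ± 0.16, FDR = 0.0108) and *RNR1* (0.56 ± 0.15, FDR = 0.0131) were higher in each Ccr4 IP library but missed the FDR. *RNR1* passed without Ccr4 IP replicate 3 (0.62, FDR = 0.00919), and *RNR4* without Ccr4 IP replicate 2 (0.71, FDR = 0.00959) or Puf5 IP replicate 2 (0.61, FDR = 0.00956). For *SML1* the difference was -0.08, with an interval from -0.53 to 0.37.

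Between the Puf5 IP and the Ccr4 IP, 3 of the 6 were lower in the Puf5 IP, against 26.4% of all RNAs that differed and 23.7% that were lower. *RNR2* differed by -0.75 ± 0.18 (FDR = 0.00165), *RNR1* by -0.51 ± 0.15 (FDR = 0.0087) and *DIF1* by -1.22 ± 0.37 (FDR = 0.00847) in edgeR's test, beside a median mRNA of -0.56. *RNR4* stood at -0.51 ± 0.16 (FDR = 0.0115). *SML1* went against the median, at 0.07, with an interval from -0.38 to 0.52. With mRNA totals none of the 3 calls was kept, and *RNR1* and *RNR4* turned to a log2 of 0.04 with TMM factors. Without Ccr4 IP replicate 1, Puf5 IP replicate 2 or Puf5 IP replicate 3 none of the 6 was called. Without Puf5 IP replicate 1 or Dhh1 IP replicate 2 or 3 only 1 was.

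Between the Puf5 IP and the Dhh1 IP none of the 6 passed, against 3.92% of all RNAs. *DIF1* was lower in all Puf5 IP libraries, with a log2 of -0.99 ± 0.38 and an FDR of 0.0669 by edgeR, and was the only 1 of the 6 with an unadjusted p under 0.05. With DESeq2 and its own size factors 1 of the 6 was called, and with DESeq2 and library totals none. *RNR1* differed by 0.05, *RNR2* by 0.23, *RNR4* by 0.10 and *SML1* by -0.01, and their 95% intervals lay between -0.46 and 0.61.

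**Figure D4:**
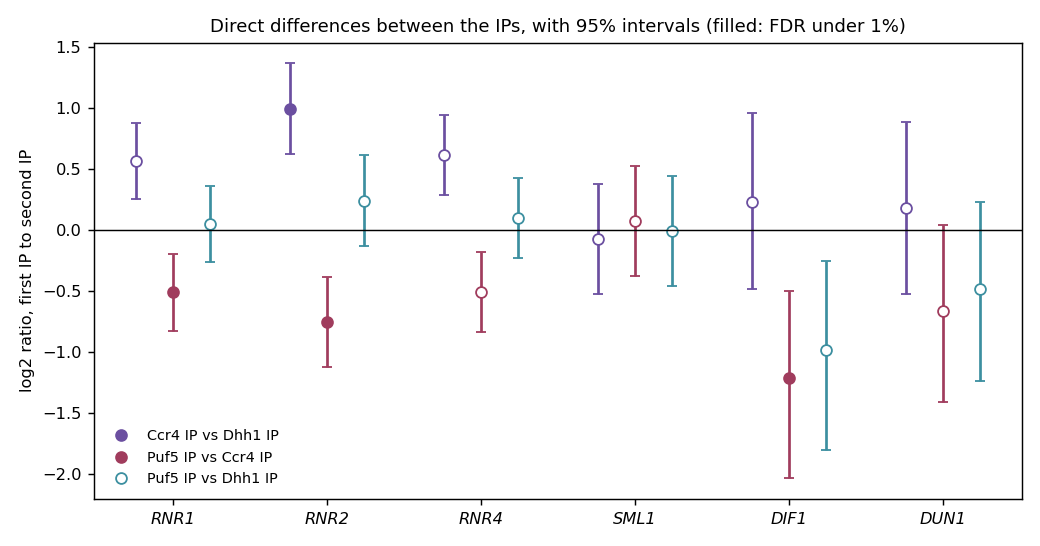
Log2 ratio between the IPs of 2 factors (y axis; the IP named first over the second) for the 6 mRNAs (x axis), with 95% intervals; filled points have an FDR under 1%. *RNR2* is higher in the Ccr4 IP than with Dhh1 (0.99) and lower in the Puf5 IP than in the Ccr4 IP (-0.75), and the intervals of *SML1* span 0 in each comparison.

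Each RNA was also split by length into 3 segments, 5′, middle and 3′. In the 3′ segment, 3 of the 6 mRNAs were enriched in the Ccr4 IP, against 48.2% of the RNAs tested in this segment, 2 in Dhh1 IPs against 29.2%, and 2 in the Puf5 IP against 20.8%. In the 5′ segment the count was 1 in the Ccr4 IP, against 30.4%, and none in Dhh1 IPs (11.4%) or the Puf5 IP (3.64%). In the middle segment it was 1 in each, and always *SML1*, against 32.0% in the Ccr4 IP, 13.1% in Dhh1 IPs and 6.98% in the Puf5 IP.

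*RNR1* had 714, 471 and 476 reads in its 3′ segment in the Ccr4 IP, 410, 294 and 337 in Dhh1 IPs and 496, 358 and 491 in the Puf5 IP, against 179, 138 and 135 in the UT IP and 185 and 208 in the UT input. All libraries of the factors were above all of the untagged cells. In the 5′ segment it had 422, 291 and 336 reads in the Ccr4 IP, 281, 241 and 236 in Dhh1 IPs and 226, 183 and 247 in the Puf5 IP, against 183, 206 and 191 in the UT IP and 210 and 236 in the input. There the Puf5 IP overlapped the untagged cells. The log2 enrichment of the 3′ segment was 1.91 ± 0.22 in the Ccr4 IP (FDR = 1.41e-06), 1.27 ± 0.22 in Dhh1 IPs (FDR = 0.000244) and 1.58 ± 0.22 in the Puf5 IP (FDR = 1.28e-05) by edgeR. With TMM factors within the segment these were 0.53, 0.14 and 0.65, and no segment of any of the 6 was called. With the input as reference the 3′ values of *RNR1* were 1.39, 0.76 and 1.06, and the Dhh1 call was lost (FDR = 0.0791).

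The difference between the ends was tested itself, as the log2 enrichment of the 3′ segment minus that of the 5′ segment, at an FDR under 5%. For *RNR1* it was 1.02 ± 0.22 in the Ccr4 IP (FDR = 0.00664), 0.81 ± 0.22 in Dhh1 IPs (FDR = 0.0493) and 1.39 ± 0.22 in the Puf5 IP (FDR = 0.000185). Most mRNAs leaned the same way, with medians of 0.40, 0.37 and 0.61 in the Ccr4, Dhh1 and Puf5 IPs. The value of *RNR1* exceeded that of 79.3% of the mRNAs in the Ccr4 IP, 75.3% in Dhh1 IPs and 84.1% in the Puf5 IP. In all, 2 of the 6 mRNAs passed in the Ccr4 IP, where 5.60% of all RNAs did, 1 in Dhh1 IPs (2.12%) and 2 in the Puf5 IP (11.4%). The Puf5 value of *RNR1* passed without any single library and with TMM factors within each segment (0.80, FDR = 0.0466). It also passed with the input as reference (1.21, FDR = 0.00383). The Ccr4 value passed without any single library, with values from 0.91 to 1.19. It lost its call with TMM factors (0.60, FDR = 0.169) and with the input as reference (0.83, FDR = 0.118). The Dhh1 value lost its call with TMM factors (0.44) and with the input as reference (0.63, FDR = 0.49). It was also lost without Dhh1 IP replicate 1, 2 or 3, and without UT IP replicate 2 or 3. Without 4 libraries of the other factors it was lost too. The FDRs with a library left out ran up to 0.164.

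The share of *RNR1* reads in the 3′ segment was 46.5% ± 2.27 in the Ccr4 IP, 44.2% ± 3.18 in Dhh1 IPs, 52.8% ± 2.92 in the Puf5 IP and 30.3% ± 3.77 in the UT IP (SD, n = 3 each), and 35.5% in the UT input (n = 2). No library of a factor overlapped those of the untagged cells. Over all mRNAs the share was 38.5% ± 1.26 in the Ccr4 IP, 35.6% ± 0.0220 in Dhh1 IPs, 40.4% ± 2.88 in the Puf5 IP and 29.8% ± 0.838 in the UT IP (SD, n = 3 each), and 34.5% in the UT input (n = 2).

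**Figure D5:**
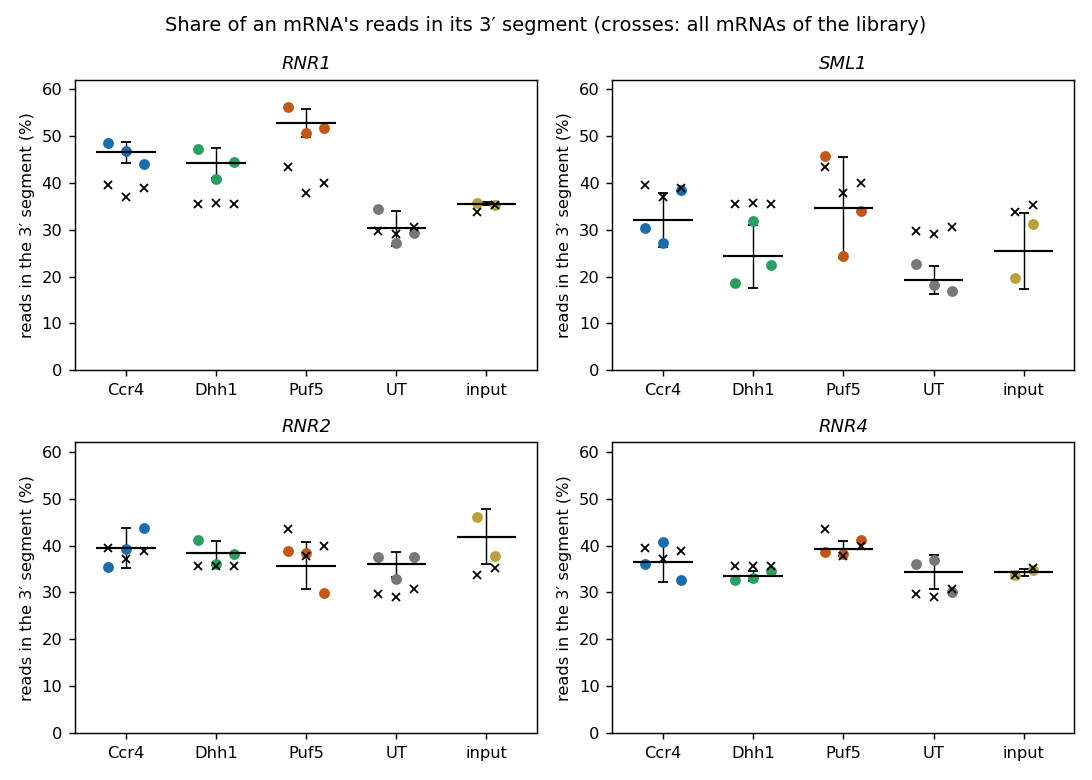
Percent of the reads of *RNR1*, *SML1*, *RNR2* and *RNR4* that lie in the 3′ segment (y axes, from 0) in each library of the Ccr4, Dhh1 and Puf5 IPs, the UT IP and the UT input (x axes). Points are libraries, lines are means, bars are 1 SD and crosses are all mRNAs of the same library; *RNR1* lies above the crosses in the IPs of the factors and near them in the UT IP, for *RNR2* the libraries of each factor overlap those of the UT IP, and for *RNR4* those of the Ccr4 IP and the Dhh1 IP do, while the Puf5 IP (38.2% to 41.1%) lies above the UT IP (30.1% to 36.9%).

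*SML1* had 127, 100 and 128 reads in its 3′ segment in the Ccr4 IP, 92, 107 and 74 in Dhh1 IPs and 260, 60 and 132 in the Puf5 IP, against 35, 37 and 24 in the UT IP and 35 and 62 in the UT input. Puf5 IP replicate 1 was more than 4 times as high as replicate 2 of the same group, which lay below 1 input library. The 3′ segment was enriched in each IP, with log2 values of 1.89 ± 0.37 (FDR = 0.000244) in the Ccr4 IP, 1.55 ± 0.37 (FDR = 0.00246) in Dhh1 IPs and 2.20 ± 0.37 (FDR = 0.000105) in the Puf5 IP by edgeR. Without Puf5 IP replicate 1 the Puf5 value was 1.55 (FDR = 0.000965), still past the cutoff. The middle segment was enriched as well, at 1.06, 1.39 and 1.05 in the Ccr4, Dhh1 and Puf5 IPs. The middle call was lost in the Ccr4 IP without Ccr4 IP replicate 2 (0.95) or UT IP replicate 1 (0.94), and in the Puf5 IP without Puf5 IP replicate 1 (0.89) or UT IP replicate 1 (0.93). The 3′ call in Dhh1 IPs was lost without Dhh1 IP replicate 2 (1.42) or UT IP replicate 3 (1.38). The difference between the ends was 1.16 ± 0.35 in the Ccr4 IP (FDR = 0.0451), 0.78 ± 0.35 in Dhh1 IPs (FDR = 0.26) and 1.47 ± 0.35 in the Puf5 IP (FDR = 0.00554). Without Puf5 IP replicate 1 the last was 1.12 (FDR = 0.0629). The Ccr4 value lost its call without any Ccr4 IP, Dhh1 IP or UT IP library and without Puf5 IP replicate 3, at FDRs of up to 0.165. With TMM factors within each segment neither passed, at 0.75 and 0.87. Neither difference between the ends passed with the input as reference, at 0.69 (FDR = 0.57) and 1.00 (FDR = 0.191). All 3′ calls were lost on that reference, at 1.18 in the Ccr4 IP (FDR = 0.0354), 0.84 in Dhh1 IPs (FDR = 0.21) and 1.49 in the Puf5 IP (FDR = 0.0209). Of the middle calls, only that in Dhh1 IPs was kept there (FDR = 0.00343).

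No difference between the ends passed the test for the small subunit mRNAs. For *RNR2* the 3′ minus 5′ value was 0.02 in the Ccr4 IP, 0.08 in Dhh1 IPs and -0.04 in the Puf5 IP, with 95% intervals that together ran from -0.65 to 0.69. For *RNR4* it was 0.10, -0.21 and 0.28, with intervals from -0.74 to 0.80. With TMM factors *RNR2* turned to -0.40 in the Ccr4 IP and -0.30 in Dhh1 IPs, and *RNR4* to -0.33 in the Ccr4 IP and -0.32 in the Puf5 IP. *RNR2* was called enriched in the Ccr4 IP in both its 5′ segment (log2 1.03 ± 0.22, FDR = 0.00043) and its 3′ segment (1.02 ± 0.24, FDR = 0.00128), just past the cutoff, and with TMM factors the 3′ value turned to -0.34. These calls were lost without Ccr4 IP replicate 1 (0.81 and 0.99), and that of the 3′ segment also without Ccr4 IP replicate 2 or UT IP replicate 2 (both 0.99). With the input as reference the 5′ call was kept (1.27, FDR = 0.00185) and the 3′ call was lost (0.83, FDR = 0.0285). In the 3′ segment *RNR2* had 214, 201 and 185 reads in the Ccr4 IP, 107, 87 and 97 in Dhh1 IPs and 154, 101 and 81 in the Puf5 IP, against 104, 93 and 106 in the UT IP and 100 and 111 in the input. *RNR4* had 277, 225 and 217 in the Ccr4 IP, 136, 149 and 139 in Dhh1 IPs and 174, 160 and 227 in the Puf5 IP, against 167, 190 and 132 in the UT IP and 151 and 188 in the input. For *DUN1* and *DIF1* no segment held more than 26 reads in a library, and none was called. *DUN1* had 11 reads in its 5′ segment in each UT IP library, and 12, 0 and 0 in its 3′ segment.

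The UT IP was set against the UT input to see what the mock IP itself did to these mRNAs. None of the 6 differed at an FDR under 1%, against 3.18% of all RNAs tested, none had an unadjusted p under 0.05 and DESeq2 called none. The log2 ratios ran from -0.61 for *DUN1* to 0.01 for *RNR2*, and the median mRNA was at -0.40. *RNR2* lay 0.41 above that median, with 85.0% of the mRNAs lower, and *RNR4* 0.21 above it, with 70.3% lower. Their low rank in Dhh1 IPs was thus taken against a mock IP that kept them better than most mRNAs. Against the input, the Dhh1 log2 was -0.07 for *RNR2* (edgeR, FDR = 0.796) and -0.28 for *RNR4* (FDR = 0.238). Their rank among mRNAs on that reference is not given here. With the input libraries as the reference, *RNR1* in the Ccr4 IP was the only one of the 6 still called, with a log2 of 1.00 (FDR = 7.6e-05), while *SML1* had 0.89, 0.97 and 0.96 in the Ccr4, Dhh1 and Puf5 IPs.

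Other genes of the pathway were taken from 2 lists. The first holds 19 checkpoint genes and regulators of ribonucleotide reductase, and all had a row. In the Ccr4 IP 16 of the 19 were enriched, against 57.8% of all RNAs, with a median log2 of 1.51, beside 1.24 for all mRNAs. In Dhh1 IPs 9 were enriched, against 37.4% of all RNAs (median 0.96, beside 0.94), and in the Puf5 IP 5, against 17.6% (median 0.82, beside 0.61). None was lower by the same rule in any IP. *IXR1*, which encodes an HMG-box regulator of *RNR1* transcription, had 806 to 931 reads in the Puf5 IP, against 50 to 78 in the UT IP, or a log2 of 3.76 ± 0.22 (edgeR, FDR = 1.43e-13). *SWI6*, a subunit of the MBF complex that drives *RNR1* at the start of the cell cycle, had a log2 of 2.40 in the Ccr4 IP, 1.88 in Dhh1 IPs and 2.40 in the Puf5 IP, with 75 reads or more in every library of the factors and 40 or fewer in the UT IP. *MOT3*, a zinc-finger repressor, had 108 to 133 reads in the Ccr4 IP and 96 to 138 in Dhh1 IPs, against 12 to 30 in the UT IP, with log2 values of 2.54 and 2.49. At the low end were *KAP122*, an importin that carries the small subunit into the nucleus, at 0.25 ± 0.20 in the Ccr4 IP (FDR = 0.235), and *WTM1*, the nuclear anchor of the small subunit, at 0.01 ± 0.19 in Dhh1 IPs (FDR = 0.947). *CRT10*, a regulator of *RNR2* and *RNR3* transcription, was lowest in the Puf5 IP, at -0.06 ± 0.25 (FDR = 0.856).

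The second list holds 13 enzymes of deoxyribonucleotide synthesis and the thioredoxins that reduce the enzyme. All had a row, and by edgeR 1 was enriched in the Ccr4 IP, against 57.8% of all RNAs, 2 in Dhh1 IPs, against 37.4%, and none in the Puf5 IP, against 17.6%. An unadjusted p under 0.05 was found for 8 in the Ccr4 IP, 10 in Dhh1 IPs and 5 in the Puf5 IP. The share of all RNAs under this p is not given here, so these counts have no background beside them. On the scale of all reads 12, 13 and 12 of the 13 lay above 0 in the Ccr4, Dhh1 and Puf5 IPs. So did 4467, 4577 and 4226 of the 4642 mRNAs. Their median log2 was 0.47 in the Ccr4 IP, beside 1.24 for all mRNAs, 0.62 in Dhh1 IPs, beside 0.94, and 0.44 in the Puf5 IP, beside 0.61. *DFR1*, dihydrofolate reductase, was enriched in the Ccr4 IP (log2 1.63 ± 0.38, FDR = 0.000275) and in Dhh1 IPs (1.27 ± 0.38, FDR = 0.00412). *TRX2*, a cytosolic thioredoxin, had 231 to 309 reads in Dhh1 IPs, against 114 to 148 in the UT IP, or a log2 of 1.10 ± 0.20 (FDR = 7.57e-05). *CDC8*, thymidylate kinase, followed *DFR1* in the Ccr4 IP at 1.15 ± 0.52 (FDR = 0.0359). In the Puf5 IP the highest were *DUT1*, which hydrolyses dUTP, at 0.91 ± 0.32 (FDR = 0.021) and *TRX1* at 0.66 ± 0.19 (FDR = 0.00842). The lowest were *DCD1*, deoxycytidylate deaminase, at -0.07 in the Ccr4 IP and 0.36 in Dhh1 IPs, and *YNK1*, nucleoside diphosphate kinase, at -0.05 in the Puf5 IP. On the scale of all reads *RNR2* and *RNR4* had lower log2 values in Dhh1 IPs than the lowest named gene of each list there, a difference that was not tested.

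The patterns over all 14 libraries were compared by Pearson's r of log2 CPM, among the 2700 mRNAs that averaged 50 counts or more. Libraries of 1 group are not independent points for this purpose, and r is given as a description. It was taken on the scale of all reads, on which most mRNAs lay above the UT IP in the IPs of the factors. A high r was therefore common for *RNR1*, where 0.72 ranked only 1505th. The mRNAs most like *RNR1* were *JSN1* (r = 0.98), which encodes a Puf family protein, and *EGT2* (0.97), a cell wall protein gene of early G1. For *RNR2* they were *APE1* (0.89), a vacuolar aminopeptidase gene, and *FIT2* (0.89), a gene of iron uptake. For *RNR4* they were *ANB1* (0.86), the hypoxic gene for eIF5A, and *VPS8* (0.85), of vacuolar protein sorting. *RNR2* ranked 11th of 2700 for likeness to *RNR4* (r = 0.75), and *RNR4* ranked 116th for likeness to *RNR2*. *RNR1* ranked 216th for *RNR4* and 178th for *RNR2*, whereas for likeness to *RNR1* itself *RNR2* ranked 1505th (r = 0.72) and *RNR4* 1960th (r = 0.60). *RNR3* had no row to compare.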

How the data were processed

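RNA from IPs of myc-tagged Ccr4, Dhh1 and Puf5, from the UT IP and from UT input was sequenced on a SOLiD instrument. The authors mapped reads to the yeast genome with SHRiMP and deposited raw counts per RNA between published transcript ends, and per segment with each RNA split by length into 3. Deposited columns of log2 enrichment hold the authors' own comparisons and were not used. How reads shared by related genes were assigned is not given in the sources used here.

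edgeR 4.0.16 (quasi-likelihood F test) was run on the counts, with library totals as sizes, a prior count of 1 and edgeR's filter on low counts, in 1 fit over the 12 IP libraries, or over all 14 for the UT IP against the input. Segments needed a mean of 5 counts, and for the ends the library was a block. The Benjamini-Hochberg adjustment covered every RNA in a test, and scripts were tested on simulated data. Gene names came from RefSeq, which matched 4791 of 4792 mRNAs.

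All 9 genes of the set were named. From each list and IP the 2 highest and the lowest log2 were named among genes averaging 20 counts or more, and for each subunit the 2 mRNAs most alike. The genes and lists were chosen with earlier results of these data known. Alternatives were other scalings (TMM factors, mRNA totals, totals without rRNA), a replicate block, other filters, prior counts and cutoffs, DESeq2 1.42.0, the exact Poisson test on pairs of replicates, the input as reference, and each library left out.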

Additional observations from a re-analysis of the deposited data

Results flagged for a closer look

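Some differences between the IPs of 2 factors passed a test of the difference itself, at an FDR under 1% with edgeR's quasi-likelihood test. *RNR2* differed by a log2 of 0.99 between the Ccr4 IP and the Dhh1 IP, and was higher in 3 of 3 Ccr4 IP libraries than in any Dhh1 IP library. Of all RNAs tested, 5.89% differed there. Between the Puf5 IP and the Ccr4 IP, *RNR1* differed by -0.51, *RNR2* by -0.75 and *DIF1* by -1.22, beside a median mRNA of -0.56. There 26.4% of all RNAs differed and 23.7% were lower. *RNR1* was near the median, with 52.7% of the mRNAs lower. With 1 library left out its call was lost in 9 of 12 fits, that of *DIF1* in 8 and that of *RNR2* in 3. None of these 3 calls was kept with TMM factors, mRNA totals, totals without rRNA or DESeq2 size factors.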

How the results depend on the processing

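Counts of the 6 mRNAs called enriched went to 0 for Ccr4, Dhh1 and Puf5 with TMM factors, mRNA totals, totals without rRNA and DESeq2 size factors, and to 1, 0 and 0 with the input as reference. In Dhh1 IPs the count was 1 with no filter and with a prior count of 5, and in the Puf5 IP it was 2 with no cutoff on log2. Between the Ccr4 IP and the Dhh1 IP, 2 were called with mRNA totals and 3 with DESeq2 on library totals. Between the Puf5 IP and the Ccr4 IP the 4 other scalings called 0, and between the Puf5 IP and the Dhh1 IP DESeq2 size factors called 1. Called segments in the Ccr4 IP went to 0 with TMM factors, 1 with mRNA totals, 1 without rRNA, 0 at a log2 over 2 and 2 with the input. In Dhh1 IPs they went to 0 with the first 4 of these and 1 with the input, and in the Puf5 IP to 0 with TMM factors, 1 at a log2 over 2 and 1 with the input. Different ends went to 0 for Ccr4 and Dhh1 and to 1 for Puf5, both with TMM factors and with the input. The cause was not tested.

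Same-numbered libraries correlated at -0.053 to 0.061 over 18 pairs, as deviations from the group means. Libraries of unlike number were not correlated for comparison, so this cannot settle whether the numbers pair them. A replicate block gave 1 enriched mRNA in Dhh1 IPs, 3 differing between the Ccr4 IP and the Dhh1 IP, and 1 with different ends in the Ccr4 IP. It also gave 2 differing between the Puf5 IP and the Ccr4 IP, where *DIF1* lost its call (-1.21, FDR = 0.0101).

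With a library left out, enriched mRNAs numbered 2 to 5 in the Ccr4 IP, 1 to 2 in Dhh1 IPs and 0 to 1 in the Puf5 IP. Those differing numbered 1 to 2 (Ccr4 against Dhh1), 0 to 3 (Puf5 against Ccr4) and 0 to 0 (Puf5 against Dhh1, and UT IP against input). Segments numbered 3 to 6, 2 to 4 and 2 to 3 in the Ccr4, Dhh1 and Puf5 IPs, and different ends 1 to 2, 0 to 1 and 1 to 2. Single values that changed sign ranged, in Dhh1 IPs, from -0.14 to 0.0073 for *RNR4*, and in the Puf5 IP from -0.091 to 0.10 for *RNR4* and -0.064 to 0.26 for *RNR2*. Ccr4 against Dhh1 gave -0.17 to 0.10 for *SML1*, and Puf5 against Ccr4 -0.27 to 0.31. Puf5 against Dhh1 gave -0.017 to 0.14 for *RNR1*, -0.000684 to 0.15 for *RNR4* and -0.35 to 0.23 for *SML1*. For the ends, *RNR4* ran from -0.087 to 0.26 in the Ccr4 IP, and *RNR2* from -0.15 to 0.19 in the Ccr4 IP, -0.015 to 0.25 in Dhh1 IPs and -0.21 to 0.21 in the Puf5 IP.

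Values that changed sign with a scaling are given as TMM factors, mRNA totals, totals without rRNA and DESeq2 size factors. In the Ccr4 IP *RNR4* was -0.62, -0.25, -0.26 and -0.67. In the Puf5 IP *RNR4* was -0.58, -0.48, -0.38 and -0.62, *RNR2* was -0.45, -0.35, -0.25 and -0.48, and *DIF1* was -0.43, -0.33, -0.24 and -0.48. *SML1* was 0.31, 0.14, 0.18 and 0.30 for Puf5 against Dhh1. *DUN1* in the Puf5 IP was -0.16 with TMM factors, -0.063 with mRNA totals and -0.20 with DESeq2. With TMM factors and DESeq2 only, *DUN1* was -0.039 and -0.090 and *RNR2* -0.24 and -0.29 in the Ccr4 IP, and *RNR1* was -0.20 and -0.21 in Dhh1 IPs. Puf5 against Ccr4 gave 0.037 and 0.056 for *RNR1* and 0.035 and 0.054 for *RNR4*. *DUN1* in Dhh1 IPs was -0.0035 with DESeq2. With TMM factors the 3′ segment of *RNR2* was -0.34 in the Ccr4 IP, and the ends gave -0.33 for *RNR4* and -0.40 for *RNR2* in the Ccr4 IP, -0.30 for *RNR2* in Dhh1 IPs and -0.32 for *RNR4* in the Puf5 IP. With the input as reference, the Puf5 IP gave -0.20 for *DUN1*, -0.18 for *RNR4* and -0.32 for *DIF1*, and the ends of *RNR2* gave -0.49 in the Ccr4 IP and -0.43 in Dhh1 IPs. Of the single values under all alternatives, 892 kept their direction and side of the threshold, 166 lost their call, 18 gained one and 65 changed sign. Depth limits *DUN1* and *DIF1*, which had at most 49 reads in a library.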
